A study of Mus musculus with 6 samples.

Results

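SMAD proteins carry signals of the transforming growth factor beta (TGF-beta) family from the cell surface to the nucleus, and ID proteins are among the best known products of genes they switch on. Transcripts of 10 such genes were examined: the receptor-regulated SMADs Smad1, Smad2, Smad3 and Smad5, the common partner Smad4, the inhibitory SMADs Smad6 and Smad7, and the inhibitors of DNA binding Id1, Id2 and Id3. They were taken by name from a table of 44792 genes, of which 23349 had any count, and all 10 were found and passed the filter on low counts. The cells were primary vascular smooth muscle cells, which form the middle layer of the artery wall and contract to set its width, from C57BL/6 mice, either littermate controls (labelled wild type) or mice with a smooth muscle knockout of the nuclear receptor corepressor Ncor1 (labelled Ncor1-/-). The cells were given 4-OHT (4-hydroxytamoxifen) to induce the deletion, which the design text words as covering both groups, and neither the Cre driver nor the age of the mice is stated in the labels. There were 3 control and 3 knockout libraries of bulk RNA, and the design text names both separate mice and technical replicates, so the p-values reflect how much these 6 libraries vary, and that variation may be technical.

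As background, TGF-beta and activin receptors phosphorylate SMAD2 and SMAD3, while receptors for bone morphogenetic proteins (BMPs) phosphorylate SMAD1, SMAD5 and SMAD9. The phosphorylated proteins join SMAD4, enter the nucleus and bind short DNA motifs. SMAD6 and SMAD7 are made in response to the signal and dampen it at the receptor, SMAD6 mainly for BMPs and SMAD7 for both branches. ID proteins are helix-loop-helix proteins without a DNA-binding region that hold E proteins away from their E-box sites. In smooth muscle, TGF-beta signalling through SMAD3 is known for contractile and matrix gene expression, and the ID genes are classical BMP targets.

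The sequences just upstream of the start site are shown for the 4 genes whose change held under every processing alternative tried, Id3 and Id2, which were lower in the knockout, and Smad3 and Smad1, which were higher. They are RefSeq sequences of the mouse build GRCm38.p6, from a reference table and not from the libraries, read 5′ to 3′ on the strand of the gene, and each covers the 250 bases before the start site. Id3 lies at chr4:136143572-136143821 on the plus strand, Id2 at chr12:25096093-25096342, Smad3 at chr9:63757995-63758244 and Smad1 at chr8:79399429-79399678, these last 3 on the minus strand. Capitals mark the SMAD box CAGAC, on either strand (GTCTG), and the GC-rich SMAD site GGCGCC.
Id3: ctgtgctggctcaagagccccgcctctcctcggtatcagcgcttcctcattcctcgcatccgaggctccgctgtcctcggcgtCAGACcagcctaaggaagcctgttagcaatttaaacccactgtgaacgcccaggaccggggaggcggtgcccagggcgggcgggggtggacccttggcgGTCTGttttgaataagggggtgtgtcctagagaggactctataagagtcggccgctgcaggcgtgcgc
Id2: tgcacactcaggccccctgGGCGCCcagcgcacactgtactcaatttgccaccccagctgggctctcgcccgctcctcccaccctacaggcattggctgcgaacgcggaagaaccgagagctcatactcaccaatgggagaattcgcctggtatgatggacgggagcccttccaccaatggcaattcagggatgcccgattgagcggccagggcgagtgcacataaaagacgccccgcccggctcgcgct
Smad3: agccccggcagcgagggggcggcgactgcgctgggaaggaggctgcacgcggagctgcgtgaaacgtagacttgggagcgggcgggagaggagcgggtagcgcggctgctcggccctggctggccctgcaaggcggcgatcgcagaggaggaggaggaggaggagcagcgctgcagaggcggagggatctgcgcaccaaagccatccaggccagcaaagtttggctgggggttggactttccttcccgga
Smad1: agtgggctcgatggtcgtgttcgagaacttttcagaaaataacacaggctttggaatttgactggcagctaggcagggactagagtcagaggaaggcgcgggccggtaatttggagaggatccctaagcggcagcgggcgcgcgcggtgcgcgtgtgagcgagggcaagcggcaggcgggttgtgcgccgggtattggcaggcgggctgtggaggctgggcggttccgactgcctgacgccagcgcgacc

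The Id3 window held CAGAC at 2 places, starting 167 and 68 bases before the start site, and the Id2 window held GGCGCC at 1 place, 231 bases before it. The Smad3 and Smad1 windows held neither, and of the 4 windows only that of Id2 held an E-box (CANNTG, the same on both strands), which did not overlap the marked site. The window of Smad6 held none of these motifs. Smad5, which was not called, has 3 windows in the table, of which 1 held GGCGCC 19 bases and another CAGAC 21 bases before its start site, so these motifs were not limited to genes that fell. CAGAC occurs in 42.2% of the 32841 windows of this length in the table, GGCGCC in 9.59% and CANNTG in 66.2%. A match describes the letters of the window and is no evidence of binding in these cells.

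Library totals were 7125538 to 9579490 counts, and Ncor1 itself was lower in every knockout library (93.7 to 99.3 against 213 to 230 CPM). Levels are given in CPM (counts scaled to the size of the library, here with TMM factors), each group by its mean ± SD (n = 3), and a positive log2 fold change means a higher level in the knockout, with SE for the standard error from the model. P-values come from the quasi-likelihood test of edgeR, were adjusted over 13323 genes by the Benjamini-Hochberg method, and were called at 0.05. Summed CPM of 12 smooth muscle markers was 11834 to 12056 in the controls and 3958 to 4160 in the knockouts, and 11 of them were lower. Summed CPM of 20 endothelial markers was 2370 to 2467 in the controls and 7944 to 8104 in the knockouts, with 19 higher and 1 lower, and that of 19 macrophage markers was 52.5 to 79.3 and 611 to 667, with 17 higher. Of 6 tested pericyte markers 6 were lower, and of 6 tested fibroblast markers 3 were higher and 3 lower. The 10 listed fibroblast markers summed to 331 to 366 CPM in the controls and 1125 to 1188 CPM in the knockouts. For the 7 listed pericyte markers the sums were 1573 to 1659 CPM and 511 to 568 CPM. No marker in these lists was at 0 in all libraries. In bulk RNA fewer cells of a type and less RNA per cell cannot be told apart, and the part of these marker shifts in any result below was not tested.

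Of the 10 genes, 2 were higher in the knockout (Smad1 and Smad3), 3 were lower (Smad6, Id2 and Id3) and 5 did not pass the test. Among all genes tested 52.6% were called, 26.4% higher and 26.2% lower, so the number of calls in the family was near the background. The changes were small. None of the 10 was called with a change of 2-fold or more, against 6.9% of all tested genes higher and 6.13% lower by that much. With only 10 genes, having none is near those shares. The median absolute log2 fold change was 0.12 in the family and 0.25 over all tested genes, which were not matched for level. By mean CPM, Smad2 stood above 40.3% of tested genes, Smad1 above 63.7% and each other member above at least 79.2%. The groups did not overlap for 6 of the 10 genes, against 57.8% of all tested genes. The median log2 fold change of the 10 genes was -0.06, against -0.0039 over all genes, and turned to 0.07 when libraries were scaled by their totals alone, a scaling that raised the median gene by 0.13.

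**Figure D1:**
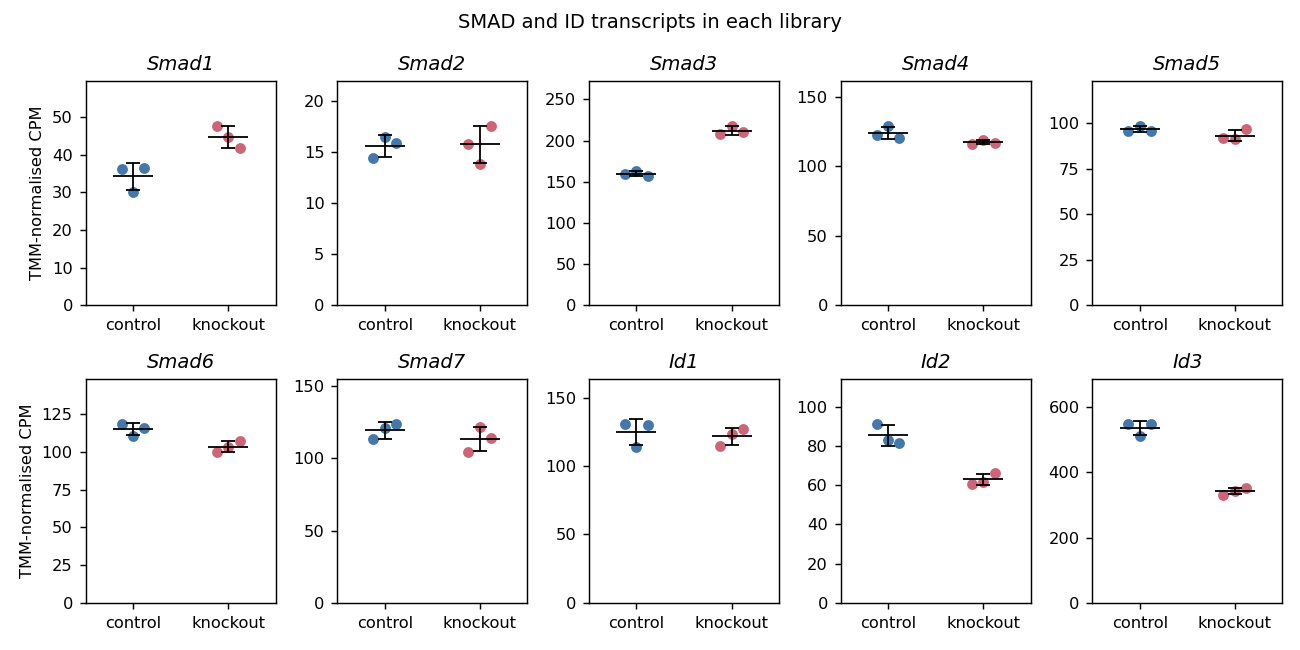
TMM-normalised CPM of each gene in the 3 control and 3 knockout libraries (points), with the group mean and SD (bars); each panel has its own axis from 0. Smad1 and Smad3 lie higher and Id2 and Id3 lower in all 3 knockout libraries, while Smad2, Smad5, Smad7 and Id1 overlap.

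In the TGF-beta branch Smad3 was higher and Smad2 was not called. Smad3, a receptor SMAD of that branch, measured 160, 163 and 157 CPM in the control libraries (replicates 1, 2 and 3, the order used throughout). The knockout libraries held 208, 218 and 210 CPM. Every knockout library was above every control library. The means were 160 ± 3.35 and 212 ± 5.10 CPM, a 1.33-fold higher level (log2 fold change 0.41, SE 0.0407, edgeR adjusted p = 1.98e-13). Smad2, its close relative, stood at 14.4, 16.5 and 15.9 CPM in control and at 15.8, 13.9 and 17.6 CPM in knockout libraries. The groups overlapped and the change did not pass the test (log2 fold change 0.03, 95% interval -0.20 to 0.26, edgeR adjusted p = 0.843). Smad2 rested on 361 counts over the control and 404 over the knockout libraries, the fewest of the 10 genes, and had the widest interval. Its sign turned without control replicate 1 (-0.029) or knockout replicate 3 (-0.059).

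In the BMP branch Smad1 was higher and Smad5 was not called. Smad1 had 36.1, 30.1 and 36.5 CPM in control and 47.6, 44.6 and 41.6 CPM in knockout libraries, again without overlap. The mean went from 34.2 ± 3.59 to 44.6 ± 2.99 CPM, a 1.30-fold rise (log2 fold change 0.38, SE 0.0770, edgeR adjusted p = 3.0e-05). Smad5, which receives the same receptor signal, had 95.6, 98.4 and 95.8 CPM in control and 91.5, 91.0 and 96.8 CPM in knockout libraries (log2 fold change -0.05, 95% interval -0.15 to 0.05). Its groups overlapped, and the value turned to 0.084 with library totals alone. The third BMP-branch SMAD, Smad9, is outside the set of 10 and was lower, from 22.5 ± 2.09 to 14.5 ± 0.590 CPM (log2 fold change -0.64, SE 0.106, edgeR adjusted p = 5.2e-07). Its control libraries held 20.2 to 24.2 CPM and its knockout libraries 13.8 to 14.9 CPM, so the groups did not overlap. The BMP-branch SMAD genes thus had values above, near and below 0.

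Smad4, the partner shared by both branches, did not pass the test, although its libraries did not overlap. It had 122, 129 and 120 CPM in control and 116, 119 and 117 CPM in knockout libraries. The log2 fold change was -0.08 with a 95% interval of -0.17 to 0.01 (edgeR adjusted p = 0.143), and it turned positive, 0.053, with library totals alone.

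Of the inhibitory SMADs, Smad6 was slightly lower. It stood at 119, 111 and 116 CPM in control and at 99.97, 103 and 107 CPM in knockout libraries, without overlap (log2 fold change -0.15, SE 0.0488, edgeR adjusted p = 0.00689). This call was lost in 6 of 18 alternatives: with library totals alone (-0.018, adjusted p = 0.781), in 3 fits on length-scaled values (FPKM, adjusted p = 0.736 to 0.761), with DESeq2's test (adjusted p = 0.0718) and without control replicate 1 (adjusted p = 0.0597). Smad7, the inhibitor of both branches, had 113, 121 and 124 CPM in control and 105, 122 and 114 CPM in knockout libraries. The groups overlapped, and the log2 fold change was -0.07 with a 95% interval of -0.17 to 0.03, turning to 0.063 with library totals alone.

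Among the ID genes, Id3 and Id2 fell and Id1 was not called. Id3, the most abundant of the 10 transcripts, fell from 547, 511 and 548 CPM in control to 331, 343 and 350 CPM in knockout libraries. All knockout libraries were far below all control libraries. On average this was 535 ± 21.3 against 341 ± 9.34 CPM, 1.57 times lower (log2 fold change -0.65, SE 0.0354, edgeR adjusted p = 7.91e-25), the largest change of the 10. Id2 fell from 91.4, 83.1 and 81.4 CPM to 60.8, 61.7 and 66.3 CPM, also without overlap. Its mean was 85.3 ± 5.33 CPM in control and 62.9 ± 2.96 CPM in knockout, 1.36-fold lower (log2 fold change -0.44, SE 0.0581, edgeR adjusted p = 1.87e-09).

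Id1, often read as the direct response to BMP signals, had 131, 114 and 130 CPM in control and 115, 123 and 127 CPM in knockout libraries. The groups overlapped, with a log2 fold change of -0.03 and a 95% interval of -0.13 to 0.07, so a fall as large as that of Id2 lay outside the interval. Its sign turned with library totals alone (0.10), and also without control replicate 1 (0.0044) or knockout replicate 1 (0.0065). The remaining ID gene, Id4, is outside the set of 10 and fell as well, its mean going from 15.9 ± 0.446 to 7.58 ± 0.996 CPM (a log2 fold change of -1.07 with SE 0.135, edgeR adjusted p = 4.28e-10). Its GRCm38.p6 upstream window held GGCGCC 148 bases before the start site, as that of Smad9 did 51 bases before it. Neither held CAGAC, and of these windows only that of Smad9 held an E-box. GGCGCC also occurred upstream of Smad5, which was not called, and such a match is no evidence of binding.

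**Figure D2:**
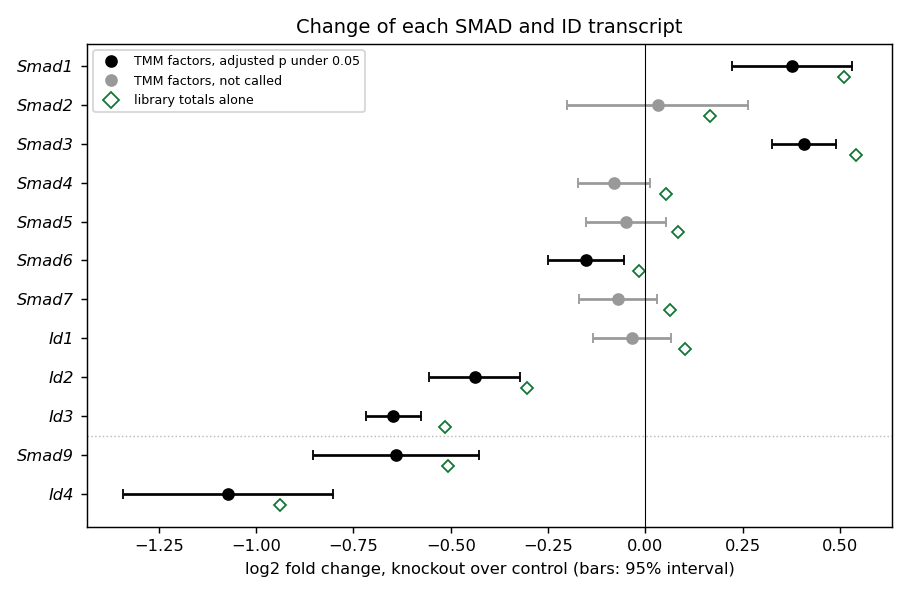
Log2 fold change of each gene with its 95% interval from the edgeR fit (circles and bars; black where the adjusted p was under 0.05, grey where not), and the same change with library totals alone (open diamonds); Smad9 and Id4, below the dotted line, are outside the set of 10. Id2, Id3, Smad1 and Smad3 keep their side of 0 under both scalings, whereas Smad4, Smad5, Smad7 and Id1 change sides and Smad6 moves to near 0.

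Levels of different genes were compared per length, in FPKM as deposited by the authors, which scales by library totals. In control cells the order of mean FPKM among SMADs was Smad6 (36.9 ± 1.21), Smad3 (29.6 ± 0.817), Smad7 (25.6 ± 1.14), Smad4 (16.0 ± 0.685), Smad5 (13.2 ± 0.290), Smad1 (10.7 ± 1.07) and Smad2 (1.68 ± 0.115). No neighbours in that order overlapped in their libraries. In knockout cells Smad3 came first (43.0 ± 1.01 FPKM), ahead of Smad6 (36.4 ± 1.40 FPKM), and Smad1 (15.3 ± 0.962 FPKM) stood above Smad5 (13.9 ± 0.544 FPKM), although those last libraries overlapped. Id3 was at 535 ± 18.6 FPKM in control and 374 ± 11.7 FPKM in knockout, Id1 at 125 ± 9.12 and 134 ± 7.38 FPKM, and Id2 at 63.9 ± 4.14 and 51.7 ± 2.68 FPKM. The order Id3, Id1, Id2 was the same in both groups, with no overlap between neighbours. These levels depend on 1 gene length per symbol, 8864 bases for Smad2 against 951 for Id1, as implied by the FPKM values and the counts. Smad2, in last place, had few counts, and the counting settings behind this are not known, so its level, its place in the order and any ratio to it are uncertain.

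Ratios within a library do not depend on how libraries are scaled to each other. Smad3 stood to Smad4 at 1.87, 1.82 and 1.87 in control and at 2.58, 2.64 and 2.58 in knockout libraries, on the FPKM scale. All knockout ratios exceeded all control ratios, as far apart as 3 against 3 allows in a two-sided exact permutation test (p = 0.1, the smallest this design can give). The ratio of BMP to TGF-beta receptor SMADs (Smad1 and Smad5 over Smad2 and Smad3, summed FPKM) was 0.782, 0.714 and 0.798 in control and 0.680, 0.630 and 0.642 in knockout libraries (exact p = 0.1). It was lower in every knockout library. Smad3 over Smad2 was 16.9 to 19.0 in the controls and 20.6 to 27.0 in the knockouts (exact permutation p = 0.1), and Smad3 made up 53.7% ± 1.33 of the FPKM of the 4 receptor SMADs in control and 58.1% ± 1.09 in knockout cells.

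The inhibitory SMADs made up 46.7%, 46.2% and 47.4% of the summed FPKM of the 7 SMADs in control libraries and 39.8%, 41.5% and 41.8% in knockout libraries (exact permutation p = 0.1). Their share was lower in all knockout libraries, and the difference was -5.77 percentage points. On this scale their own levels moved little, with mean FPKM in control and knockout of 36.9 and 36.4 for Smad6 and 25.6 and 26.7 for Smad7. The larger moves were in other SMADs of the sum, Smad3 (29.6 and 43.0 FPKM) and Smad1 (10.7 and 15.3 FPKM). The summed FPKM of the 7 SMADs was 133 to 134 in the controls and 150 to 156 in the knockouts. Smad6 over Smad7 was 1.37 to 1.57 in the controls and 1.27 to 1.43 in the knockouts, which overlapped (exact permutation p = 0.6).

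Among the ID genes, Id1 took 17.6%, 16.6% and 17.6% of the summed FPKM in control and 23.4%, 24.1% and 24.2% in knockout libraries (exact permutation p = 0.1). The share of Id3 went from 73.9% ± 0.591 to 66.9% ± 0.476, and that of Id2 was 8.83% ± 0.502 and 9.23% ± 0.210, with overlapping libraries. Summed FPKM of Id1, Id2 and Id3 was 691 to 747 in the controls and 538 to 581 in the knockouts. Relative to the E protein genes Tcf3, Tcf4 and Tcf12, whose products the ID proteins bind, it was 11.1 to 11.4 times as high in control and 7.39 to 8.18 times in knockout libraries (exact permutation p = 0.1). The size of that ratio rests on the gene lengths behind FPKM. Its difference, -3.43 in FPKM and -0.846 in CPM, was negative in both but is not on the same scale. The shares of Smad3 and of Id3 and Id2, and the ratios of Smad3 to Smad4 and to Smad2, Smad6 to Smad7 and ID to E protein genes, were chosen after the values were seen.

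**Figure D3:**
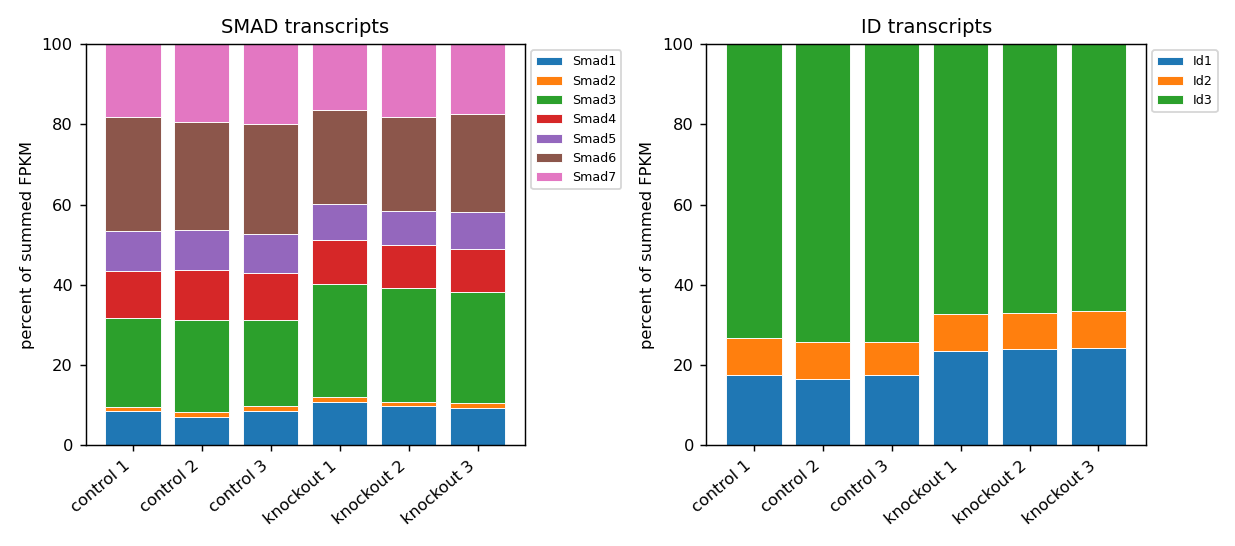
Percent of summed FPKM taken by each of the 7 SMAD genes (left) and by each of the 3 ID genes (right) in every library, as stacked bars from 0 to 100. The Id1 share is 16.6% to 17.6% in the controls and 23.4% to 24.2% in the knockouts, and Smad6 and Smad7 together take 46.2% to 47.4% in the controls and 39.8% to 41.8% in the knockouts.

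The other genes of the pathway were read by their roles, and the counts below are by edgeR, against 26.4% of all tested genes higher and 26.2% lower. Of 12 tested ligand genes 5 rose and 6 fell (median log2 fold change -0.22). Of the TGF-beta ligands, Tgfb2 (307 ± 3.57 to 104 ± 2.58 CPM) and Tgfb3 (241 ± 12.5 to 63.0 ± 3.27 CPM) were lower and Tgfb1, named after its value was seen, was higher (67.5 ± 1.65 to 94.1 ± 4.27 CPM, log2 fold change 0.48). The BMP ligands Bmp4 (333 ± 8.66 to 574 ± 7.97 CPM) and Bmp6 (122 ± 7.29 to 296 ± 12.1 CPM) and the stress-related family member Gdf15 (log2 fold change 1.28) were higher. Of 13 tested receptor and coreceptor genes 7 were higher and 5 lower (median 0.13). Acvrl1, a BMP type I receptor of endothelial cells, was higher (75.5 ± 2.44 to 227 ± 10.2 CPM), as was its coreceptor Eng (39.8 ± 4.68 to 111 ± 1.33 CPM), in libraries where 19 of 20 endothelial markers were also higher. The more widely expressed BMP type I receptors Bmpr1a (169 ± 2.91 to 99.3 ± 0.254 CPM) and Acvr1 (log2 fold change -0.41) were lower. The TGF-beta type I receptor Tgfbr1 had 0.931 to 2.04 CPM and was not tested; the counting settings behind this low level are not known. With DESeq2's test 4 receptor genes were higher, and on the FPKM scale 2 were lower.

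Of 12 tested extracellular antagonists 4 were higher and 8 lower (median -0.72). Gremlin 1, Grem1, a BMP antagonist, fell from 59.1 ± 1.30 to 19.8 ± 0.336 CPM, Nbl1, another of that kind, from 140 ± 3.41 to 63.6 ± 5.92 CPM, and the follistatin-like Fstl1 by 0.72 on the log2 scale. Follistatin, Fst, which binds activins, rose from 49.5 ± 2.44 to 140 ± 3.71 CPM. Antagonists were therefore called in both directions.

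Genes whose products act on SMAD proteins inside the cell were also mixed. Of 16 tested ubiquitin ligases, phosphatases and anchors 5 were higher and 6 lower (median -0.08). Smurf2 rose from 194 ± 8.65 to 384 ± 8.64 CPM, Smurf1 from 119 ± 1.67 to 197 ± 2.09 CPM and Nedd4l from 36.9 ± 2.67 to 71.1 ± 2.31 CPM; these encode ubiquitin ligases that mark SMADs or, with SMAD7, the receptors for degradation. Their log2 fold changes (0.99, 0.73 and 0.94) were above that of any SMAD gene. The pseudoreceptor Bambi, a BMP target, fell from 21.5 ± 3.39 to 6.92 ± 1.24 CPM. With library totals alone 6 of this list were higher and 3 lower and the median turned to 0.06, and on the FPKM scale 3 were lower.

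Of 13 tested corepressors and cofactors 1 was higher, 4 were lower and 8 did not pass (median -0.03). The SMAD corepressor Ski fell by 0.40 and the runt factors Runx2 and Runx1 by 0.81 and 0.43 on the log2 scale, while the corepressor Tgif1 rose by 0.32. Without control replicate 3, or without knockout replicate 2, 2 genes of this list were higher. With library totals alone 4 were higher and 3 lower and the median turned to 0.11. The call of Runx1 was lost on the FPKM scale (adjusted p = 0.11 to 0.197).

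Of 10 tested E proteins and related helix-loop-helix factors, the partners of ID proteins or of E proteins, 4 were higher and 3 lower (median 0.017). The E protein Tcf4 rose from 50.4 ± 3.35 to 69.9 ± 1.68 CPM, and Bhlhe41, a repressor of that class, by 0.45 on the log2 scale. Lyl1 rose from 10.6 ± 1.93 to 25.3 ± 0.875 CPM and Tal1 from 0.883 ± 0.290 to 2.64 ± 0.197 CPM, both factors of haematopoietic and endothelial cells. Macrophage and endothelial markers were higher in the same libraries, as given above. The E proteins Tcf3 (log2 fold change -0.12, edgeR adjusted p = 0.0552) and Tcf12 (0.07, edgeR adjusted p = 0.229) did not pass. With DESeq2's test and on the FPKM scale 1 gene of this list was lower.

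Most genes on a list of BMP-branch targets were lower. Of its 12 tested members 3 were higher and 9 lower (median -0.92). The list holds Smad9 and Id4, given above, and shares Bambi, Grem1 and Eng, among others, with other lists. None of the 10 genes of the set is on it, although the ID genes are classical BMP targets and Smad6 and Smad7 respond to the signal. Their log2 fold changes lay nearer 0 than that median: Id3 -0.65, Id2 -0.44, Smad6 -0.15, Smad7 -0.07 and Id1 -0.03. Atoh8, a helix-loop-helix factor, fell from 149 ± 7.31 to 87.3 ± 3.30 CPM. Msx2 (log2 fold change -1.20), Dlx5 (-1.42), Hey2 (-1.24) and Hey1 (-0.57), transcription factor genes named here after their values were seen, were lower as well. The members that rose included Eng (1.49) and Gja5 (1.44), the connexin of arterial endothelium, which went from 19.4 ± 0.829 to 52.1 ± 2.57 CPM. Eng and Gja5 are endothelial genes, and the summed endothelial markers rose in the same libraries from at most 2467 to at least 7944 CPM.

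Of 23 tested targets of the TGF-beta branch 6 were higher and 14 lower (median -0.50), while Smad3 itself was higher. The 9 members that fell at least 2-fold are named with their values. The collagen genes Col3a1, Col1a2 and Col1a1 fell by 3.68, 2.27 and 1.91, periostin, Postn, by 3.59, elastin, Eln, by 2.96, transgelin, Tagln, by 1.81, the protease inhibitor Timp3 by 1.65 and smooth muscle actin, Acta2, by 1.31 on the log2 scale, and the transcription factor Snai2 by 1.70. Cdkn1a (0.55) and Klf10 (0.51), named after their values were seen, were among the members that rose. Smooth muscle markers, among them Tagln and Acta2, were lower in the same libraries, as given above.

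**Figure D4:**
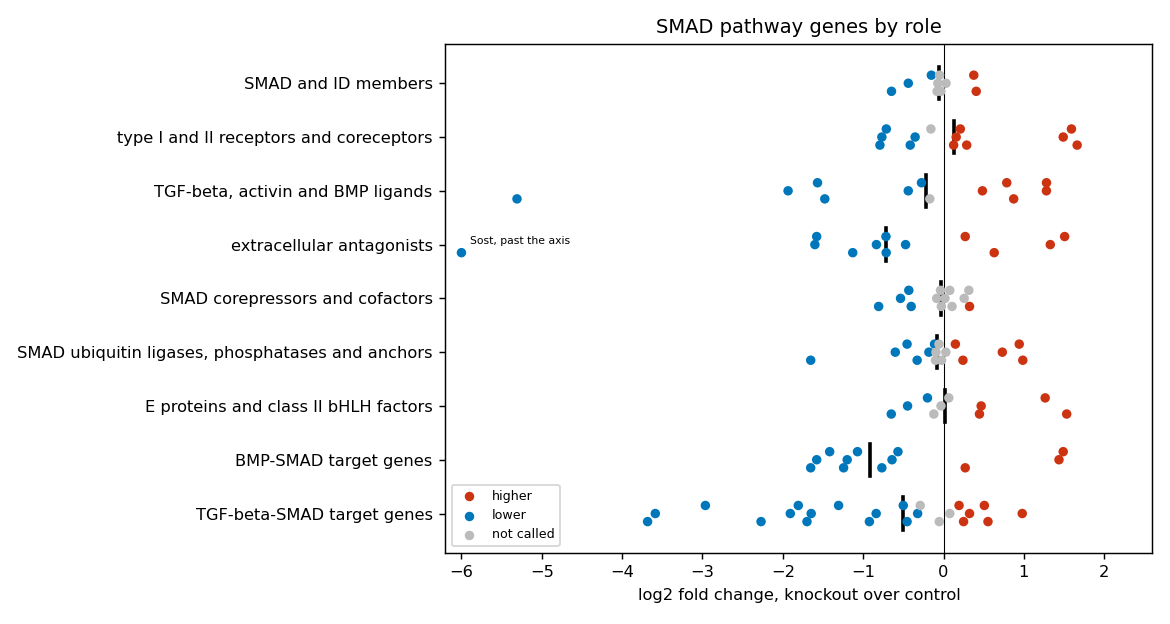
Log2 fold change of every tested gene in the 10 SMAD and ID genes and 8 lists by role (points; red higher, blue lower, grey not called by edgeR) with the median of each list (black bar); Sost, whose knockout counts are all 0, lies past the left end of the axis. The SMAD and ID genes stay within 0.65 of 0, and the BMP target list, which holds none of them, has a median of -0.92.

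By Euclidean distance between centred log2 CPM profiles over the 6 libraries, the genes most like Smad3, the largest rise, were Ldha (distance 0.0244), Slc19a2 (0.0418) and Tmsb10 (0.0465). Those most like Id3, the largest fall, were Mlec (0.0502), Angptl2 (0.0585) and 2410006H16Rik (0.0610). With 2 groups, such likeness mostly reflects an equal difference between them.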

How the data were processed

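The submitters' processing notes name HISAT2 2.0 and the build mm9; no label or header used here records the counter, the annotation or the use of strand. The authors deposited whole-number counts per gene and FPKM values, which equal the count per library total and 1 gene length (relative spread between libraries at most 1.05e-05 over 12362 genes). Counts of 13323 genes passing filterByExpr were fitted with edgeR 4.0.16 (TMM, robust quasi-likelihood, no replicate term) in R 4.3.3, limma 3.58.1 and DESeq2 1.42.0 serving as alternatives. The fit was tested on simulated data in which few genes changed, in both directions alike. That test does not bear on the choice of scaling. Intervals are the log2 fold change ± the t quantile times the SE. Ratios used exact permutation tests. The members, lists and tests were chosen with earlier results of these data known. Named genes were the members, Smad9, Id4, and per list the 4 called genes with the smallest adjusted p and those of at least 50 CPM with a 2-fold change. A count of 0 allows up to 3 counts, 0.313 to 0.421 CPM. Pairs of libraries within a group differed by more than sampling noise (chi-square per degree of freedom 1.38 to 1.84), so all were kept. GENCODE vM21 lists a pseudogene on the other strand within Smad4 and small RNAs within Smad5, none in the count table. Upstream sequences matched 6 of the 10 genes by symbol (Smad2, Smad4, Smad7 and Id1 are named only); no other coordinates were used, the build being another. Some genes of the lists are counted but not reported here by name.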

Additional observations from a re-analysis of the deposited data

How the results depend on the processing

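Smad1, Smad3, Id2 and Id3 kept direction and call in all 18 alternatives, with log2 fold changes of 0.29 to 0.51, 0.39 to 0.54, -0.48 to -0.30 and -0.68 to -0.51. The number of the 10 genes higher was 2 in every alternative, and the number lower was 2 or 3. Changes of sign concerned genes that did not pass the test. With library totals alone the log2 fold change was 0.053 for Smad4, 0.084 for Smad5, 0.063 for Smad7 and 0.10 for Id1. With log2(FPKM + 1), with or without a filter, it was 0.051, 0.074, 0.056 and 0.098, and with log2(FPKM + 0.1) it was 0.054, 0.079, 0.058 and 0.099. These scalings move the median gene by 0.13, which is more than the size of any of the changes concerned. Without control replicate 1 Smad2 was at -0.029 and Id1 at 0.0044, without knockout replicate 1 Id1 was at 0.0065, and without knockout replicate 3 Smad2 was at -0.059; over the fits that left out 1 library Smad2 ranged from -0.059 to 0.11 and Id1 from -0.097 to 0.0065. In CPM, not divided by length, the inhibitory SMAD share differed by -4.28 percentage points rather than -5.77. In CPM the difference was also 5.83 rather than 4.42 points for the Smad3 share. It was 0.518 rather than 0.745 for Smad3 over Smad4, and -0.846 rather than -3.43 for ID over E protein genes. Length rescales a ratio itself, so the sizes of these ratio differences cannot be compared between CPM and FPKM. Summed levels differed by -219 CPM and -164 FPKM for ID genes, and by 35.1 CPM and 20.2 FPKM for SMAD genes. These sums are in different units. The CPM also carry TMM factors, whereas FPKM scales by library totals, so the sizes of these differences cannot be compared either. Same-numbered control and knockout libraries hardly deviated together (correlations 0.0040 to 0.023). Whether they share more than a number was not tested. With the replicate block 3509 genes were higher and 3486 lower against 3512 and 3492, and of the 10 genes 2 and 3 as before. The depth limits Smad2, the gene with the fewest counts.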
